A study of Sus scrofa with 12 samples.

Results

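The genes described here encode the mitochondrial ribosome, the protein import channels of both mitochondrial membranes and the core factors that transcribe and translate mitochondrial DNA. They were chosen by symbol alone and not by their values: every gene row named MRPL or MRPS with a number, TIMM or TOMM with a number, TFAM, TFB1M, TFB2M, POLRMT, GFM1, GFM2, TUFM or TSFM. The rule found 90 of 30461 gene rows in the deposited table, and all 90 carry the biotype protein coding. They comprise 38 MRPL genes, 25 MRPS genes, 11 TIMM genes, 9 TOMM genes, 4 transcription genes and 3 translation factors. TUFM, TIMM23, TIMM13, TIMM29, TOMM6 and MRPL12 were not analysed here.

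Mitochondria keep a small genome whose protein genes all encode core subunits of the respiratory chain and ATP synthase. A dedicated ribosome inside the organelle translates them, and its proteins, named MRPL in the large subunit and MRPS in the small one, are made from nuclear genes in the cytosol. They must therefore be imported, like almost every other mitochondrial protein, through the TOM complex of the outer membrane and then the TIM23 or TIM22 complex of the inner membrane. TFAM, POLRMT and TFB2M start transcription of mitochondrial DNA, while TFB1M methylates the ribosomal RNA of the small subunit. In the oviduct, mitochondria supply ATP to the beating cilia of multiciliated cells and to secretory cells, the main pair of epithelial cell types there.

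Polyadenylated RNA of pig oviduct epithelial cells was sequenced from its 3′ ends in 12 bulk libraries, 4 in each of 3 groups. Fresh cells are single cells freshly scraped from oviducts. The other groups were spheroids, rounded clusters of cultured cells, which had been formed either in DMEM/F12 or in incubation medium, in a series on a protocol for making uniform oviduct spheroids. The composition of the media, the time in culture, the strain and age of the pigs and whether replicates are separate animals are not given in the sources used here, and the titles hold unexplained tags, FBS on the DMEM/F12 libraries and Diff on the incubation medium ones. P-values therefore measure the spread between libraries, which may be technical. Values below are CPM, counts relative to library size, scaled by the TMM method, with libraries listed in the order of replicates 1 to 4. Changes are log2 fold changes ± standard error from edgeR, and a gene was called where its p-value, adjusted over the 14070 genes tested, was under 0.05.

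Total counts were 5045218 to 6026901 in fresh cell libraries, 7583584 to 8068213 in DMEM/F12 libraries and 7585813 to 8603809 in incubation medium libraries, so depth was higher in both spheroid groups. Cell markers moved with the groups too. Their counts of calls are to be read against all genes tested. Of those, 35.1% were called higher and 35.7% lower in DMEM/F12, and 35.8% each way in incubation medium. The proliferation markers summed to 43.2 to 63.4 CPM in fresh cells, 338 to 389 CPM in DMEM/F12 spheroids and 379 to 572 CPM in incubation medium spheroids, and 10 of the 10 tested were called higher in each medium. Multiciliated cell markers summed to 1278 to 1498, 209 to 433 and 237 to 370 CPM, with 9 and 8 of 9 tested called lower. Secretory cell markers summed to 19020 to 30070, 1045 to 2092 and 1020 to 2083 CPM, with 3 of 4 tested called lower in each medium and 1 higher. OVGP1 and SLPI carried the fresh cell sums, with means of 22240 and 4205 CPM. MUC1 was called higher (1.78, adjusted p = 9.85e-10, and 1.57, adjusted p = 2.62e-09). SOX17 fell by less than OVGP1 and SLPI (-0.37, adjusted p = 0.0158, and -0.29, adjusted p = 0.0486). Epithelial markers summed to 4063 to 4742, 6557 to 8159 and 4717 to 6700 CPM. Of 7 tested rows, 6 were called higher and 1 lower in DMEM/F12, and 5 higher and 1 lower in incubation medium. KRT8 stood on 2 of these rows, both called higher in each medium. The weaker row averaged only 0.14 CPM in fresh cells, 1.53 CPM in DMEM/F12 and 2.97 CPM in incubation medium. EPCAM was called lower in DMEM/F12 (-0.525, adjusted p = 0.00741). CLDN4 was called higher there (0.72, adjusted p = 0.000274) and lower in incubation medium (-0.71, adjusted p = 0.000285). Stromal and smooth muscle markers summed to 60.2 to 94.9, 12.7 to 35.5 and 7.26 to 13.0 CPM. Of 5 tested, 2 were called lower in DMEM/F12 (40%) and 4 in incubation medium (80%), and none higher. COL1A1 (-0.50, adjusted p = 0.32) and PDGFRA (0.67, adjusted p = 0.129) were not called in DMEM/F12. Leukocyte markers summed to at most 11.2 CPM in any library, and the erythroid markers AHSP and HBM were at 0 in 10 and 9 of the 12 libraries. The endothelial list summed to 41.6 to 57.4, 136 to 252 and 91.2 to 148 CPM, carried by CDH5 and KDR. Of 3 tested, these 2 were called higher in each medium and PECAM1 lower (-0.93, adjusted p = 2.01e-05, and -0.91, adjusted p = 2.48e-05). VWF was at 0 in 9 libraries. What part these differences had in the results below was not tested. In such bulk libraries fewer cells of a type and less RNA per cell cannot be told apart.

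All 90 genes together made up 3973, 3729, 3874 and 3707 CPM in the fresh cell libraries. The sums were 5141, 5323, 5687 and 5319 CPM in DMEM/F12 spheroids and 6169, 6639, 6951 and 6020 CPM in incubation medium spheroids. The 3 groups did not overlap: fresh cells were lowest, DMEM/F12 spheroids stood between, and incubation medium spheroids were highest. A total of 89 genes passed the filter on low counts. The exception was TOMM20L, a relative of the import receptor gene TOMM20, which had counts in 1 incubation medium library and none in the other 11. Over the tested genes of this group the median biological coefficient of variation was 0.0994, against 0.129 over all genes tested.

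**Figure D1:**
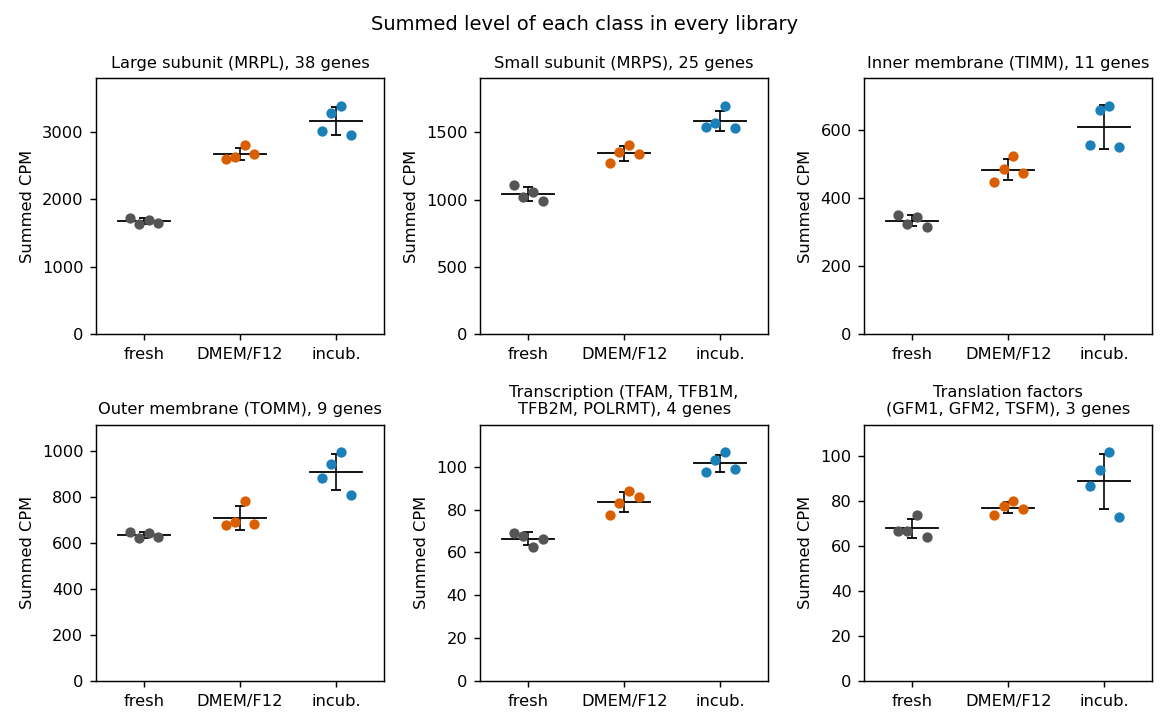
Summed CPM (TMM-scaled) of each class of genes, 1 point per library, with the mean and SD of 4 libraries as horizontal line and bar, for fresh cells, DMEM/F12 spheroids and incubation medium spheroids (incub.). Large subunit genes sum to 1628 to 1726 CPM in fresh cells, 2593 to 2802 CPM in DMEM/F12 spheroids and 2953 to 3380 CPM in incubation medium spheroids, and each of the other classes has its highest mean in incubation medium.

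In DMEM/F12 spheroids, 62 of the 89 tested genes rose against fresh cells (69.7%) and 7 fell (7.87%). Over all genes tested, 35.1% rose and 35.7% fell. Their median log2 change was 0.52, against -0.01 over all genes tested. In 58 of them every DMEM/F12 library lay above every fresh library, which held for 32.4% of all genes tested, and in 6 every library lay below, against 32.9%. Of the 62 that rose, 17 did so at least 2-fold, while no fall reached that size.

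In incubation medium spheroids, 76 of the 89 rose against fresh cells (85.4%) and 2 fell (2.25%), where 35.8% of all genes tested rose and 35.8% fell. The median log2 change was 0.77, against -0.01 over all genes tested. The libraries did not overlap in 73 genes that were higher and 2 that were lower, against 32.4% and 32.5% of all genes tested. A rise of at least 2-fold was seen for 27 genes. The fresh cell libraries are shared by the comparisons of both media. With counts thinned to the smallest library's total, a check added after the data had been seen, 56 rose and 6 fell in DMEM/F12 and 76 rose and 3 fell in incubation medium.

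**Figure D2:**
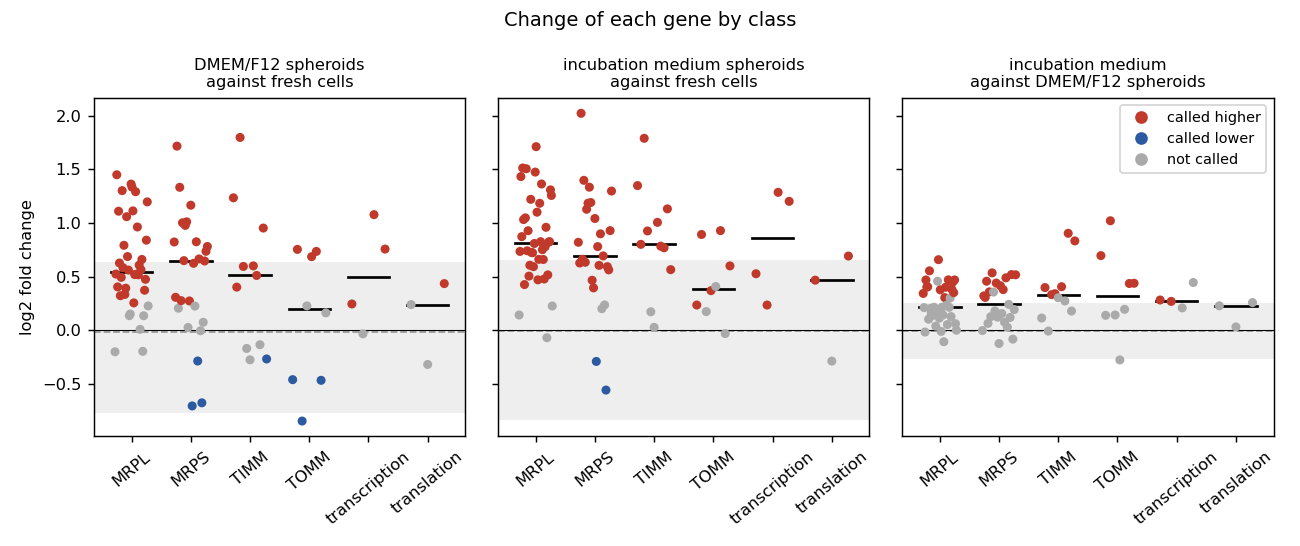
Log2 fold change of each tested gene by class in the 3 comparisons, coloured by call; black bars are class medians, and the grey band and dashed line are the interquartile range and median of all 14070 genes tested. Most points lie above 0 in all 3 panels, and the called falls are 7 genes in DMEM/F12 and 2 in incubation medium.

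Most genes of the large ribosomal subunit rose, 31 of 38 in DMEM/F12 (81.6%) and 35 of 38 in incubation medium (92.1%), against 35.1% and 35.8% over all genes tested. Their medians were 0.54 and 0.82. None was called lower in either medium by edgeR in the fit with TMM scaling or by DESeq2, and none was lower there at an unadjusted p under 0.05. With RLE size factors, 1 was lower in DMEM/F12 at that unadjusted p, and the settings that called 2 of them lower there follow below. MRPL37, a subunit protein with no bacterial counterpart, read 59.4, 55.1, 62.5 and 55.7 CPM in fresh cells, 155, 139, 160.1 and 133 CPM in DMEM/F12 spheroids and 193, 183, 207 and 179.5 CPM in incubation medium spheroids. No group overlapped another, and the changes against fresh cells were 1.33 ± 0.086 (adjusted p = 8.57e-09) and 1.71 ± 0.086 (adjusted p = 9.25e-10). MRPL15, which does have a bacterial counterpart, followed the same order with 45.95, 36.4, 36.6 and 30.6 CPM, 82.2, 83.05, 75.95 and 82.1 CPM and 108, 116, 109 and 95.4 CPM, or 1.11 ± 0.11 (adjusted p = 4.73e-07) and 1.51 ± 0.11 (adjusted p = 2.22e-08).

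Other large subunit genes rose in both media with no called difference between them. MRPL13 read 32.03, 24.4, 28.1 and 27.4 CPM in fresh cells, 77.00, 78.5, 73.04 and 77.4 CPM in DMEM/F12 and 74.6, 80.5, 77.5 and 69.8 CPM in incubation medium. Both spheroid groups lay above all fresh libraries and overlapped each other, at 2.73-fold (1.45 ± 0.088, adjusted p = 5.05e-09) and 2.7-fold (1.43 ± 0.088, adjusted p = 5.6e-09). MRPL35 read 14.3, 17.9, 12.7 and 11.2, then 32.1, 35.5, 43.5 and 33.6, then 36.03, 40.9, 41.7 and 37.9 CPM, a rise of 1.36 ± 0.14 and 1.48 ± 0.14 (adjusted p = 7.62e-07 and 3.29e-07). MRPL20 read 56.4, 50.6, 60.8 and 52.9, then 113, 138, 154 and 139, then 143, 169.7, 189 and 125 CPM, with rises of 1.30 ± 0.13 and 1.51 ± 0.13 (adjusted p = 6.38e-07 and 1.49e-07). For both genes the 2 media overlapped and neither met the fresh cells. MRPL58, whose product is also known as ICT1 and frees stalled mitochondrial ribosomes, is given here for that role, chosen after its values were seen: its means were 30.5 ± 3.64, 69.9 ± 4.1 and 72.9 ± 9.11 CPM (SD), and it rose by 1.20 ± 0.11 and 1.26 ± 0.11 (adjusted p = 2.48e-07 and 1.49e-07).

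The 3 large subunit genes called in neither medium were MRPL9, MRPL10 and MRPL49, named after their values were seen. MRPL49 averaged 52.6 ± 5.87 CPM (SD) in fresh cells, 45.8 ± 5.44 CPM in DMEM/F12 and 50.1 ± 2.56 CPM in incubation medium, with overlapping libraries. MRPL49 was called lower in DMEM/F12 with the replicate number as a block (-0.20, adjusted p = 0.0307) and without fresh replicate 3 (-0.26, adjusted p = 0.0455). MRPL10 was called lower there without fresh replicate 1 (-0.24, adjusted p = 0.0462) and where a mean of at least 10 counts was required (-0.23, adjusted p = 0.0429). MRPL9 was called higher in both media with the replicate block (0.23, adjusted p = 0.0288, and 0.22, adjusted p = 0.0308) and with low counts left in (0.30, adjusted p = 0.0257, and 0.29, adjusted p = 0.0307). It was called in DMEM/F12 with library totals as well (0.30, adjusted p = 0.0165), and in one medium or both without fresh replicate 1, DMEM/F12 replicate 2 or 4, or incubation medium replicate 1 or 2 (0.27 to 0.30).

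Of the 25 MRPS genes, 17 rose and 3 fell in DMEM/F12 (68% and 12%, against 35.1% and 35.7% over all genes tested). In incubation medium 21 rose and 2 fell (84% and 8%, against 35.8% each way). The medians in these media were 0.65 and 0.69. MRPS12, a protein of the decoding centre of the small subunit, had the largest rise of the ribosomal genes in both media. It read 12.2, 10.04, 11.2 and 10.8 CPM in fresh cells, 33.6, 34.5, 39.96 and 37.7 CPM in DMEM/F12 and 44.9, 45.9, 49.5 and 39.8 CPM in incubation medium. Every spheroid library stood at more than 3 times the fresh cell mean of 11.1 CPM. The changes were 1.72 ± 0.11 (3.29-fold, adjusted p = 5.64e-09) and 2.02 ± 0.11 (4.06-fold, adjusted p = 1.22e-09).

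The exceptions were 3 genes. MRPS26, a mitochondria-specific protein of the small subunit, fell from 277, 217, 254 and 225 CPM in fresh cells to 141, 144, 163 and 148 CPM in DMEM/F12 and 186, 193, 210.0 and 206 CPM in incubation medium. The groups did not overlap, with DMEM/F12 lowest, and the changes were -0.71 ± 0.089 (adjusted p = 6.04e-06) and -0.29 ± 0.088 (adjusted p = 0.00853, but 0.0538 without the filter on low counts). MRPS36 fell as well, from 39.3, 29.4, 38.3 and 31.9 CPM to 21.6, 19.4, 23.3 and 22.7 CPM and 22.2, 24.3, 28.6 and 19.3 CPM, with changes of -0.68 ± 0.13 (adjusted p = 0.00032) and -0.56 ± 0.13 (adjusted p = 0.00144). Its product is now known as KGD4, a component of the 2-oxoglutarate dehydrogenase complex of the citric acid cycle, and not as a ribosomal protein. MRPS33, also mitochondria-specific, was lower in DMEM/F12 (-0.29 ± 0.11, adjusted p = 0.0362) with overlapping libraries and was not called in incubation medium (0.20 ± 0.11, adjusted p = 0.124). The call of MRPS33 in DMEM/F12 was lost with DESeq2 (-0.27, adjusted p = 0.0615), library totals (-0.21, adjusted p = 0.0976), thinned counts (-0.25, adjusted p = 0.0874) and low counts left in (-0.21, adjusted p = 0.136). It was also lost without fresh replicate 1, 2 or 4 or DMEM/F12 replicate 1, 2 or 3, while in incubation medium MRPS33 was called higher without fresh replicate 4 (0.28, adjusted p = 0.0482). Fractional counts of MRPS33 in 8 of 12 libraries may mean that part of its reads had been shared with other features.

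**Figure D3:**
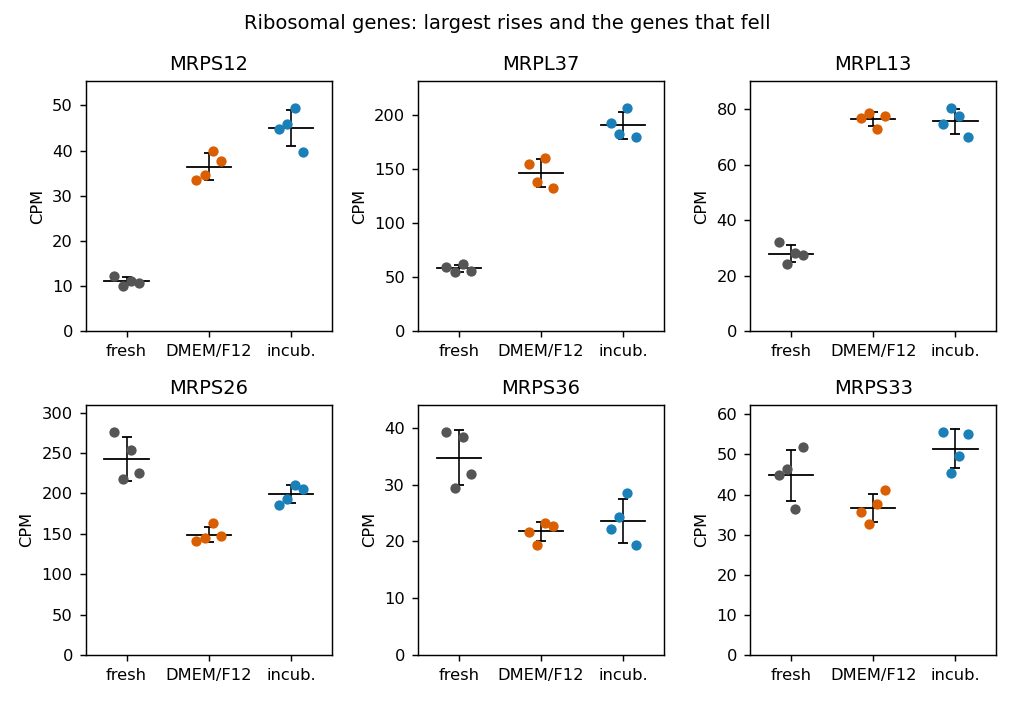
CPM (TMM-scaled) of 6 ribosomal genes in every library, with mean and SD of 4 libraries, for fresh cells, DMEM/F12 spheroids and incubation medium spheroids (incub.). MRPS12, MRPL37 and MRPL13 are higher in all 8 spheroid libraries than in any fresh library, whereas MRPS26 and MRPS36 are lower in all 8.

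The symbols do not separate the subunits exactly. MRPS18A and MRPS30 encode proteins that sit in the large subunit in spite of their names. MRPS18A averaged 31.4 ± 1.94 CPM (SD), 63.00 ± 5.56 CPM and 68.7 ± 2.7 CPM, rising by 1.00 ± 0.084 and 1.13 ± 0.084 (adjusted p = 1.08e-07 and 3.31e-08). MRPS30 was not called in DMEM/F12 (0.23 ± 0.11, adjusted p = 0.0775), except with library totals (0.30, adjusted p = 0.0265) or without DMEM/F12 replicate 1 (0.30, adjusted p = 0.0274), and rose in incubation medium (0.60 ± 0.11, adjusted p = 0.000155).

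Genes of the inner membrane import machinery mostly rose: 7 of 11 in DMEM/F12 (63.6%), where TIMM9 fell, and 9 of 11 in incubation medium (81.8%). Over all genes tested, 35.1% and 35.8% rose. The medians of the 11 genes were 0.51 and 0.80. TIMM17A, a channel subunit of the TIM23 complex that passes proteins with a presequence, rose most of all genes described here in DMEM/F12. It read 10.1, 11.1, 10.8 and 10.6 CPM in fresh cells, 31.9, 39.3, 41.8 and 35.5 CPM in DMEM/F12 and 32.7, 39.5, 43.2 and 32.2 CPM in incubation medium. The 2 media overlapped and both lay at about the same distance above fresh cells, at 3.48-fold and 3.46-fold (1.80 ± 0.13, adjusted p = 2.11e-08, and 1.79 ± 0.13, adjusted p = 2.2e-08). Fractional counts occurred in 5 of its 12 libraries.

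TIMM17B, the alternative subunit at the same place in TIM23, read 53.3, 47.4, 56.3 and 52.5 CPM in fresh cells, 80.3, 80.6, 80.05 and 75.3 CPM in DMEM/F12 and 88.2, 108, 106 and 95.7 CPM in incubation medium. The 3 groups did not overlap, and its changes were 0.59 ± 0.085 (adjusted p = 2.11e-05) and 0.93 ± 0.085 (adjusted p = 2.52e-07). TIMM44, which anchors the import motor to TIM23, and TIMM50, the TIM23 receptor, also rose in both media, TIMM44 by 0.60 ± 0.11 and 1.01 ± 0.11 (adjusted p = 0.000183 and 1.18e-06) and TIMM50 by 0.51 ± 0.15 and 0.78 ± 0.15 (adjusted p = 0.00603 and 0.000224). TIMM21, a TIM23 subunit that contacts the outer membrane complex, was called in neither (-0.17 ± 0.1 and 0.17 ± 0.1, adjusted p = 0.162 and 0.151), although in incubation medium it was called higher without that group's replicate 3 (0.26, adjusted p = 0.0406) and among genes with whole counts only (0.25, adjusted p = 0.0411). TIMM22, the channel of the separate TIM22 complex that inserts metabolite carriers, was called in neither either (-0.28 ± 0.13 and 0.03 ± 0.13, adjusted p = 0.0699 and 0.862). In DMEM/F12 TIMM22 was called lower without fresh replicate 2 (-0.33, adjusted p = 0.0484) or DMEM/F12 replicate 1 (-0.34, adjusted p = 0.0369), and where a mean of at least 10 counts was required (-0.30, adjusted p = 0.0465).

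The small TIM proteins are chaperones that carry hydrophobic precursors across the space between the membranes. All 5 tested rose in incubation medium, against 35.8% over all genes tested. In DMEM/F12 3 rose (60%, against 35.1%) and 1 fell (20%, against 35.7%). TIMM10 read 19.7, 15.96, 17.2 and 18.2 CPM in fresh cells, 39.4, 36.5, 46.4 and 45.1 CPM in DMEM/F12 and 40.1, 48.5, 53.7 and 38.96 CPM in incubation medium, a rise of 1.24 ± 0.13 and 1.35 ± 0.13 (adjusted p = 8.31e-07 and 3.27e-07). TIMM9, its partner in the soluble TIM9-TIM10 chaperone, read 53.6, 48.4, 48.2 and 44.9 CPM, 36.4, 39.03, 42.6 and 44.2 CPM and 76.3, 77.2, 65.5 and 69.8 CPM. All DMEM/F12 libraries of TIMM9 lay below and all incubation medium libraries above the fresh ones, at -0.27 ± 0.091 (adjusted p = 0.0166) and 0.56 ± 0.089 (adjusted p = 5.42e-05). The fall in DMEM/F12 missed the threshold without fresh replicate 1 (-0.21, adjusted p = 0.0653) and without DMEM/F12 replicate 1 (-0.20, adjusted p = 0.0739) or 2 (-0.23, adjusted p = 0.0584), and also with library totals (-0.19, adjusted p = 0.0603) and with low counts left in (-0.20, adjusted p = 0.125).

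TIMM8B, which works in the related TIMM8-TIMM13 chaperone, read 67.4, 58.6, 57.6 and 51.4 CPM in fresh cells, 99.5, 112, 137 and 107 CPM in DMEM/F12 and 110.5, 142, 158 and 105 CPM in incubation medium, rising by 0.95 ± 0.14 and 1.13 ± 0.14 (adjusted p = 3.26e-05 and 6.13e-06). TIMM8A, the paralog mutated in the human deafness-dystonia syndrome, read 20.4, 17.4, 17.8 and 13.7 CPM, 15.4, 17.3, 16.01 and 14.4 CPM and 23.1, 35.2, 37.05 and 22.8 CPM. It was not called in DMEM/F12 (-0.14 ± 0.18, adjusted p = 0.51) and rose in incubation medium (0.77 ± 0.17, adjusted p = 0.00106), where replicates 2 and 3 stood above replicates 1 and 4. TIMM10B, a small TIM bound to the TIM22 complex, rose by 0.40 ± 0.11 and 0.80 ± 0.11 (adjusted p = 0.00372 and 9.6e-06), the former at 0.0597 with thinned counts.

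**Figure D4:**
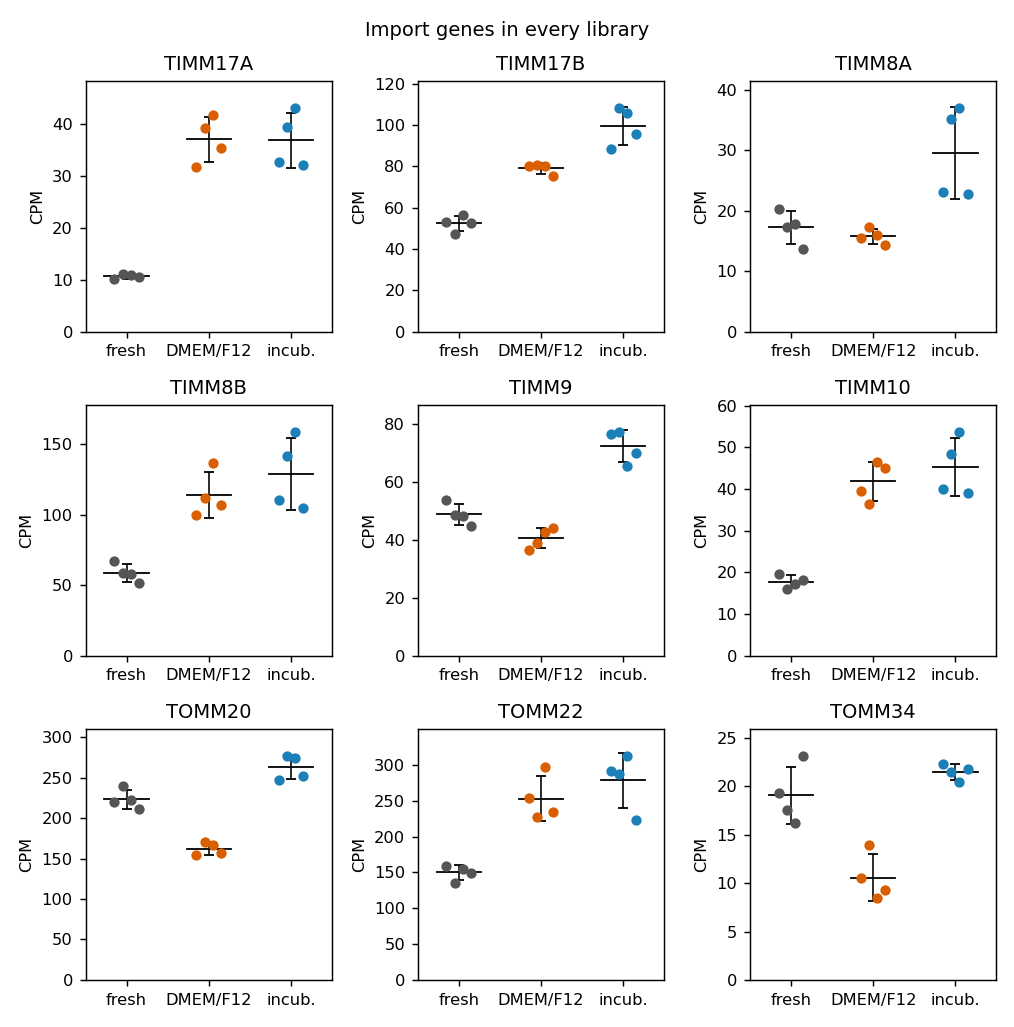
CPM (TMM-scaled) of 9 import genes in every library, with mean and SD of 4 libraries, for fresh cells, DMEM/F12 spheroids and incubation medium spheroids (incub.). TIMM17A is at 10.1 to 11.1 CPM in fresh cells and at 31.9 CPM or more in every spheroid library, while TIMM9, TOMM20 and TOMM34 are lowest in DMEM/F12.

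Of 8 tested TOMM genes, 3 rose and 3 fell in DMEM/F12 (37.5% each, against 35.1% and 35.7% over all genes tested). In incubation medium 5 rose and none fell (62.5% higher, against 35.8%), and the medians were 0.19 and 0.39. None of the 8 was lower in incubation medium at an unadjusted p under 0.05 with edgeR or DESeq2 either. Among the 6 genes of the TOM complex, without TOMM34 and TOMM40L, 2 rose and 2 fell in DMEM/F12 (33.3% each). In incubation medium 5 of these 6 rose (83.3%). TOMM22, the central receptor of the TOM complex, read 159, 136, 155 and 149 CPM in fresh cells, 254, 227, 297 and 234 CPM in DMEM/F12 and 291, 287, 312 and 224 CPM in incubation medium, and TOMM5, a small subunit of the complex, read 67.7, 68.2, 76.3 and 72.7, then 104, 116, 142 and 112, then 112, 144, 171 and 115 CPM. Neither gene overlapped fresh cells in either medium. TOMM22 rose by 0.75 ± 0.11 and 0.89 ± 0.11 (adjusted p = 3.14e-05 and 6.1e-06) and TOMM5 by 0.73 ± 0.14 and 0.93 ± 0.14 (adjusted p = 0.000214 and 2.46e-05). Each had fractional counts, which may come from shared reads, in 8 of 12 libraries.

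TOMM20, the receptor for presequences, went the other way in DMEM/F12. It read 219.8, 240.1, 222 and 211 CPM in fresh cells, 154, 171, 167 and 158 CPM in DMEM/F12 and 248, 277, 275 and 252 CPM in incubation medium. No library of 1 group overlapped another group, and the changes were -0.46 ± 0.073 (adjusted p = 5.7e-05) and 0.23 ± 0.073 (adjusted p = 0.00993). TOMM7, a small subunit of the complex, also fell in DMEM/F12, from 83.2, 78.4, 81.9 and 85.1 CPM to 56.1, 60.2, 60.2 and 61.2 CPM (-0.47 ± 0.071, adjusted p = 3.87e-05), and read 79.2, 84.2, 83.9 and 74.2 CPM in incubation medium, where 3 of the 4 libraries lay within the range of fresh cells (-0.03 ± 0.071, adjusted p = 0.709). TOMM34, a cytosolic co-chaperone that keeps precursors ready for import and is not part of the complex, had the largest fall in DMEM/F12: 19.3, 17.6, 16.3 and 23.1 CPM in fresh cells, 10.6, 13.9, 8.47 and 9.24 CPM in DMEM/F12 and 22.3, 21.5, 20.4 and 21.8 CPM in incubation medium, at -0.85 ± 0.16 (adjusted p = 0.000211) and 0.17 ± 0.15 (adjusted p = 0.307).

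TOMM70, the receptor for metabolite carriers, was not called in DMEM/F12 (0.16 ± 0.1, adjusted p = 0.18) except with library totals (0.24, adjusted p = 0.0427) or without fresh replicate 1 (0.28, adjusted p = 0.0161), and rose in incubation medium (0.60 ± 0.1, adjusted p = 0.000129), from 68.6, 51.1, 56.5 and 47.6 CPM in fresh cells to 92.7, 84.9, 81.3 and 80.5 CPM. TOMM40, the pore itself, read 25.2, 26.9, 27.7 and 31.2 CPM in fresh cells, 28.3, 33.7, 35.2 and 32.5 CPM in DMEM/F12 and 32.8, 34.8, 40.6 and 34.9 CPM in incubation medium. Its changes were 0.23 ± 0.1 (adjusted p = 0.0609) and 0.37 ± 0.1 (adjusted p = 0.00482), and in DMEM/F12 it was called higher under library totals (0.30, adjusted p = 0.0222), under the replicate block (0.22, adjusted p = 0.0345), with low counts left in (0.30, adjusted p = 0.0316) and among genes with whole counts only (0.30, adjusted p = 0.0171). It was called there too without fresh replicate 4 (0.29, adjusted p = 0.0298) or DMEM/F12 replicate 1 (0.30, adjusted p = 0.0191). TOMM40L, a second pore gene, averaged 6.19 ± 1.07, 9.97 ± 1.05 and 8.24 ± 1.74 CPM (SD) and was called higher in DMEM/F12 alone (0.69 ± 0.18, adjusted p = 0.00409). In incubation medium it missed the threshold (0.41 ± 0.19, adjusted p = 0.0634) but passed it without fresh replicate 3 (0.53, adjusted p = 0.0301) or incubation medium replicate 1 (0.55, adjusted p = 0.0122) and among genes with whole counts only (0.49, adjusted p = 0.033), and the media were not called different for it (-0.28 ± 0.17, adjusted p = 0.272).

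Among the transcription genes, 3 of 4 rose in DMEM/F12 and all 4 in incubation medium, against 35.1% and 35.8% over all genes tested. TFB1M read 10.3, 8.61, 9.54 and 11.8 CPM in fresh cells, 17.8, 20.2, 23.3 and 23.5 CPM in DMEM/F12 and 20.3, 24.3, 25.5 and 27.9 CPM in incubation medium, and TFB2M read 8.18, 5.74, 5.24 and 5.10, then 9.85, 9.18, 11.6 and 10.6, then 15.5, 15.2, 15.6 and 9.67 CPM. All spheroid libraries of both genes lay above the fresh ones. TFB1M rose by 1.08 ± 0.14 and 1.29 ± 0.14 (adjusted p = 1.02e-05 and 1.65e-06) and TFB2M by 0.76 ± 0.2 and 1.20 ± 0.19 (adjusted p = 0.00326 and 6.46e-05). POLRMT, the mitochondrial RNA polymerase, read 15.1, 13.6, 14.2 and 15.5 CPM, 15.6, 18.5, 17.5 and 17.8 CPM and 19.4, 21.4, 21.2 and 22.3 CPM, at 0.24 ± 0.1 (adjusted p = 0.042) and 0.53 ± 0.1 (adjusted p = 0.00028). The call of POLRMT in DMEM/F12 was lost with the replicate block (0.24, adjusted p = 0.0505), with DESeq2 (0.27, adjusted p = 0.0827), with thinned counts (0.22, adjusted p = 0.101), in a fit of these 2 groups alone (0.25, adjusted p = 0.0647), where a mean of at least 10 counts was required (0.22, adjusted p = 0.065) and without any one of fresh replicates 2 and 3 or DMEM/F12 replicates 2, 3 and 4 (0.22 to 0.26, adjusted p = 0.0543 to 0.0983).

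TFAM, which packs mitochondrial DNA and bends its promoters, moved least of these 4. It read 35.7, 39.8, 33.5 and 33.9 CPM in fresh cells, 34.3, 35.3, 36.1 and 33.9 CPM in DMEM/F12 and 42.5, 42.2, 44.5 and 38.96 CPM in incubation medium. The first 2 groups overlapped (-0.03 ± 0.082, adjusted p = 0.719), and the value turned to 0.04 with library totals, also not called. Incubation medium replicate 4 lay below fresh replicate 2, the other 3 incubation medium libraries stood above all fresh ones, and the rise was 0.23 ± 0.081 (adjusted p = 0.0179).

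Of the 3 translation factors, 1 rose in DMEM/F12 (33.3%, against 35.1% over all genes tested) and 2 in incubation medium (66.7%, against 35.8%). The medians were 0.24 and 0.47. TSFM, the exchange factor that recharges the elongation factor EF-Tu, read 22.3, 21.2, 21.3 and 25.5 CPM in fresh cells, 30.4, 31.4, 29.4 and 30.7 CPM in DMEM/F12 and 36.7, 37.6, 39.9 and 31.4 CPM in incubation medium, with no overlap between groups and rises of 0.43 ± 0.096 and 0.69 ± 0.096 (adjusted p = 0.000978 and 1.47e-05). GFM1, the translocating elongation factor, read 29.4, 24.8, 30.3 and 24.1 CPM, 31.4, 33.2, 34.00 and 29.7 CPM and 37.6, 40.3, 43.3 and 28.9 CPM, and was called higher in incubation medium (0.47 ± 0.12, adjusted p = 0.00374) but not in DMEM/F12 (0.24 ± 0.12, adjusted p = 0.101, but 0.0347 with the replicate block and 0.044 with library totals). GFM2, which recycles ribosomes after termination, averaged 18.1 ± 3.96, 14.5 ± 2.18 and 14.8 ± 2.94 CPM (SD) and was called in neither medium (-0.32 ± 0.18 and -0.29 ± 0.18, adjusted p = 0.126 and 0.164). With the replicate block GFM2 was called lower in DMEM/F12 (-0.31, adjusted p = 0.046), and with thinned counts in incubation medium (-0.42, adjusted p = 0.0429).

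Between the media, 37 of the 89 tested genes were higher in incubation medium than in DMEM/F12 spheroids (41.6%). None was called lower by edgeR or by DESeq2, and none was lower at an unadjusted p under 0.05 with either tool. Of all genes tested, 12.7% were higher and 12.3% lower. The median log2 difference was 0.24, against 0.00 over all genes tested, and 80 of the 89 values were positive. The libraries of the media did not overlap for 35 genes, all higher in incubation medium, where 13.9% of all genes tested were higher and 13% lower without overlap. Scaling by library totals moved the median of all genes tested to -0.10 and turned the calls over all genes from 1791 higher and 1731 lower to 1239 higher and 2471 lower. Of the genes described here it still gave 27 higher and none lower, with a median of 0.15.

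**Figure D5:**
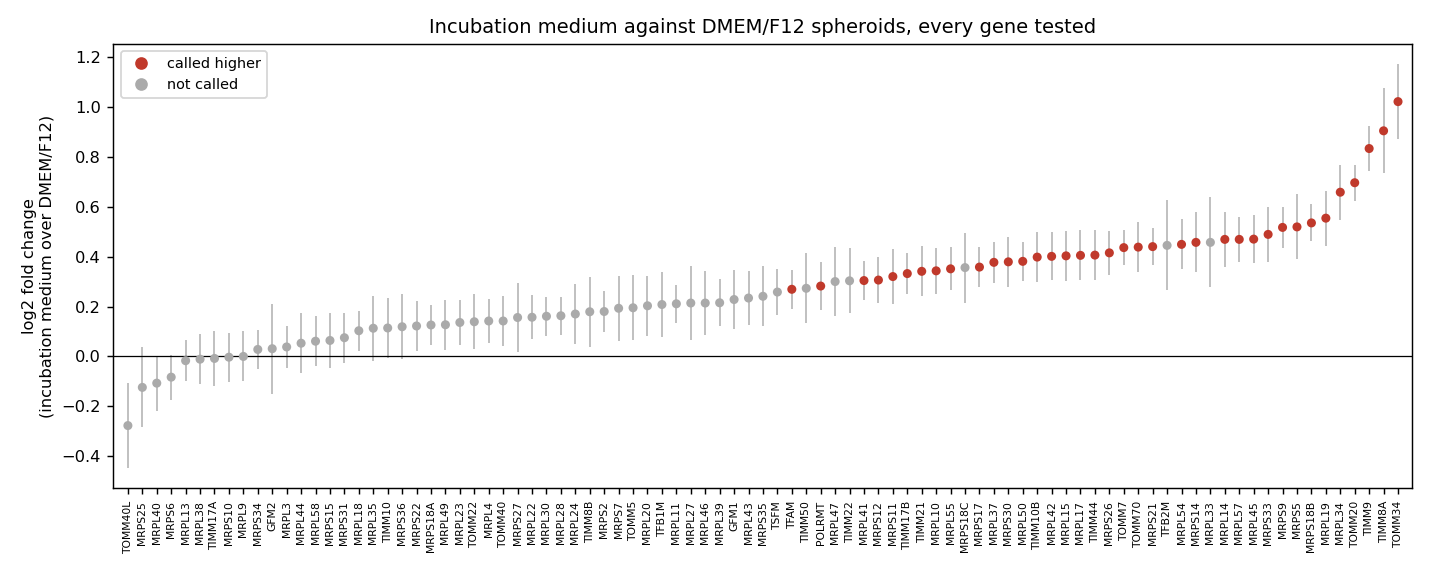
Log2 difference between incubation medium and DMEM/F12 spheroids for each of the 89 tested genes, in order of size, with bars of 1 standard error. The highest are TOMM34, TIMM8A, TIMM9, TOMM20 and MRPL34, and 9 genes have a value below 0, none of them called.

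The differences between media were small for most ribosomal genes and larger for some import genes. By class, 14 of 38 MRPL genes, 11 of 25 MRPS genes, 6 of 11 TIMM genes, 4 of 8 TOMM genes and 2 of 4 transcription genes were called higher in incubation medium. Over all genes tested, 12.7% were. None of the 3 translation factors was called. At an unadjusted p under 0.05, 1 of these 3 was higher with edgeR and with DESeq2. TOMM34 showed the largest difference at 1.02 ± 0.15 (2.03-fold, adjusted p = 0.000272), with 8.47 to 13.9 CPM in DMEM/F12 and 20.4 to 22.3 CPM in incubation medium. TIMM8A followed at 0.90 ± 0.17 (adjusted p = 0.0014), TIMM9 at 0.83 ± 0.089 (adjusted p = 2.08e-05) and TOMM20 at 0.70 ± 0.073 (adjusted p = 1.83e-05). None of these 4 genes overlapped between the media.

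MRPL34, a small protein of the large subunit with a bacterial counterpart, had the largest difference of the ribosomal genes. It read 28.2, 24.03, 26.4 and 29.2 CPM in fresh cells, 32.8, 26.5, 27.4 and 32.9 CPM in DMEM/F12 and 45.3, 47.6, 54.9 and 40.8 CPM in incubation medium. Its incubation medium libraries stood above both other groups, which overlapped, with a difference between media of 0.66 ± 0.11 (adjusted p = 0.000643) and a change of 0.15 ± 0.12 in DMEM/F12 (adjusted p = 0.254). MRPS18B, a protein of the small subunit, read 39.3, 41.1, 40.2 and 41.7 CPM, 61.5, 65.05, 58.2 and 69.8 CPM and 95.6, 86.8, 90.2 and 96.5 CPM in the same order, a difference of 0.54 ± 0.074 between media (adjusted p = 0.000166). TIMM17A and MRPL13 hardly differed between the media, at -0.01 ± 0.11 (adjusted p = 0.972) and -0.02 ± 0.082 (adjusted p = 0.909).

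Several of the smaller differences depended on single libraries, on the scaling or on the filter. TFAM differed by 0.27 ± 0.079 (adjusted p = 0.0232), TIMM21 by 0.34 ± 0.1 (adjusted p = 0.0247), POLRMT by 0.28 ± 0.096 (adjusted p = 0.0449) and MRPS12 by 0.31 ± 0.092 (adjusted p = 0.0252), and all 4 lost the call with library totals (adjusted p = 0.118, 0.0901, 0.184 and 0.101). All 4 also lost it with low counts left in (adjusted p = 0.0857, 0.0554, 0.147 and 0.0664). POLRMT lost it with DESeq2 (adjusted p = 0.084) and in a fit of these groups alone (adjusted p = 0.0537). With thinned counts TIMM21 (adjusted p = 0.0627) and MRPS12 (adjusted p = 0.132) lost it. Leaving out 1 library ended the call of TFAM for DMEM/F12 replicates 1 and 4 and incubation medium replicates 1, 2 and 3 (0.24 to 0.27, adjusted p = 0.05 to 0.0676), and of TIMM21 for DMEM/F12 replicates 2, 3 and 4 and incubation medium replicates 2 and 4 (0.30 to 0.34, adjusted p = 0.0508 to 0.0722). It did so for POLRMT with any of the 8 spheroid libraries but incubation medium replicate 1 (0.23 to 0.32, adjusted p = 0.0543 to 0.121), and for MRPS12 with DMEM/F12 replicates 1 and 2 and incubation medium replicates 1, 2 and 3 (0.26 to 0.31, adjusted p = 0.051 to 0.0827). Incubation medium replicate 4 acted the other way: without it TFB2M (0.59, adjusted p = 0.0151), MRPS18C (0.47, adjusted p = 0.0134), TSFM (0.32, adjusted p = 0.0169) and GFM1 (0.34, adjusted p = 0.0293) were also called higher. With the replicate block TFB2M (0.43, adjusted p = 0.0474), MRPS18C (0.35, adjusted p = 0.013) and TIMM50 (0.27, adjusted p = 0.0227) were called higher as well. Library totals also ended the media calls of TIMM17B (adjusted p = 0.0685), TIMM44 (0.056), MRPL10 (0.0693), MRPL41 (0.0734), MRPS11 (0.169) and MRPS30 (0.06), listed after their values were seen. Low counts left in ended those of MRPS11 (adjusted p = 0.0946) and MRPS30 (adjusted p = 0.0501). MRPS11 lost its call under other settings too, DESeq2 among them (adjusted p = 0.0628).

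Set side by side, the comparisons with fresh cells gave 61 genes called higher in both media, and 2 called lower in both, MRPS26 and MRPS36. A further 13 were called higher in incubation medium and not called in DMEM/F12, and for 10 of these the difference between media was itself called: MRPL34, MRPL45, MRPL50, MRPS5, MRPS14, MRPS21, MRPS30, TFAM, TIMM8A and TOMM70. TIMM9 and TOMM20 were called lower in DMEM/F12 and higher in incubation medium. TOMM7, TOMM34 and MRPS33 were lower in DMEM/F12 and not called in incubation medium, and all 3 differed between the media. TOMM40L was called higher in DMEM/F12 only, and 7 genes (GFM2, MRPL9, MRPL10, MRPL49, MRPS35, TIMM21 and TIMM22) were called in neither. These lists follow from the calls of the fit with TMM scaling, change with the settings given above for single genes, and include genes named after their values were seen.

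Some of the genes are paralogs, and their ratio within each library does not depend on the scaling between libraries. The log2 ratio of TIMM17A to TIMM17B was higher by 1.19 in DMEM/F12 and by 0.85 in incubation medium than in fresh cells, and that of TIMM8A to TIMM8B was lower, at -1.07 and -0.37. Between the media the TIMM8A to TIMM8B ratio was 0.70 higher in incubation medium. For GFM1 to GFM2 the differences from fresh cells were 0.55 and 0.74. Of MRPS18A to MRPS18B, whose products occupy different subunits, the ratio was 0.36 higher in DMEM/F12 and differed by -0.05 in incubation medium. Between the media this ratio differed by -0.41, incubation medium minus DMEM/F12. By a two-sided exact permutation test of 4 libraries against 4, the smallest possible p was 0.0286. It was reached in 8 of the 24 ratios and comparisons tested: TIMM17A to TIMM17B in both media, TIMM8A to TIMM8B in both media and between them, GFM1 to GFM2 in incubation medium, and MRPS18A to MRPS18B in DMEM/F12 and between the media. After adjustment over the 24 the smallest value was 0.0857, and with so few libraries the design left little room to pass the threshold, so these differences are given as descriptions. Within pairs of libraries with the same replicate number, a check added after the data had been seen, the difference had 1 sign in all 4 pairs for 13 of the 24. For the 8 above this was fixed in advance. The smallest p is reached only where the ratios of the groups do not overlap, and any pairing then gives 1 sign. Besides those 8 the difference had 1 sign for TIMM17A to TIMM17B between the media (-0.34 ± 0.17, incubation medium minus DMEM/F12, SD of 4 pairs), TOMM40 to TOMM40L between the media (0.43 ± 0.48), GFM1 to GFM2 in DMEM/F12 (0.55 ± 0.40) and between the media (0.19 ± 0.14), and MRPS18B to MRPS18C in DMEM/F12 (-0.34 ± 0.14). An exact test over 4 pairs cannot go below p = 0.125.

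Genes that work with this machinery without belonging to it were followed on separate lists. Counts on these lists are to be read against the 35.1% of all genes tested that rose and the 35.7% that fell in DMEM/F12, and the 35.8% each way in incubation medium. All 6 other proteins of the mitochondrial ribosome or its membrane anchor that were tested rose in incubation medium and 4 in DMEM/F12. AURKAIP1, a small subunit protein, rose by 0.85 and 1.09 (adjusted p = 5.75e-06 in DMEM/F12 and 4.48e-07 in incubation medium), and OXA1L, which inserts newly made proteins into the inner membrane, rose in incubation medium (0.62, adjusted p = 4.18e-05) and had a value of 0.18 in DMEM/F12 (adjusted p = 0.115). Of 14 tested genes for ribosome assembly, 4 rose in DMEM/F12 (28.6%, below the share over all genes) and 8 in incubation medium (57.1%). MTERF3 read 67.7 ± 8.33, 87.6 ± 4.46 and 105.3 ± 6.90 CPM (SD, n = 4 each) in fresh cells, DMEM/F12 and incubation medium, and the GTPase NOA1 rose in incubation medium (0.53, adjusted p = 0.000368) but measured 0.00 in DMEM/F12 (adjusted p = 0.98). Of 9 tested transfer RNA synthetases of mitochondria, 3 were higher and 4 lower in DMEM/F12 (33.3% and 44.4%) and 4 higher and 3 lower in incubation medium (44.4% and 33.3%), near the shares over all genes. HARS2 rose by 1.11 and 0.94 (adjusted p = 3.13e-07 and 1.77e-06), while MARS2 fell (-2.02 and -1.61 on the log2 scale, adjusted p = 7.09e-08 and 5.11e-07).

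Of 17 tested genes on the list of import motor, sorting, processing and chaperone genes, 9 rose and 5 fell in DMEM/F12 (52.9% and 29.4%, against 35.1% and 35.7% over all genes tested), and 11 rose and 3 fell in incubation medium (64.7% and 17.6%, against 35.8% each way). HSPD1, the HSP60 folding chamber of the mitochondrial matrix, averaged 639 ± 32.0 CPM (SD) in fresh cells, 169.7 ± 11 CPM in DMEM/F12 and 294 ± 26.9 CPM in incubation medium. Its lid HSPE1 averaged 734 ± 65.1, 255 ± 17.2 and 415 ± 54.1 CPM. Both fell in each medium, with log2 changes of -1.91 and -1.12 for HSPD1 (adjusted p = 3.1e-10 and 3.29e-08) and -1.53 and -0.82 for HSPE1 (adjusted p = 1.29e-08 and 4.7e-06), and both were higher in incubation medium than in DMEM/F12. SAMM50, which inserts barrel proteins such as TOMM40 into the outer membrane, rose by 1.11 and 1.58 (adjusted p = 4.56e-07 and 1.36e-08). IMMP2L, a peptidase of the inner membrane, fell in both (-2.59 and -3.05, adjusted p = 1.65e-08 and 5.46e-09).

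Of the genes that replicate, transcribe or process mitochondrial DNA and RNA outside the group, 12 rows were tested, of which 4 rose and 2 fell in DMEM/F12 and 4 rose and 1 fell in incubation medium. The share that rose, 33.3% in each medium, was near the 35.1% and 35.8% over all genes tested. SSBP1, the single-strand binding protein of mitochondrial DNA, rose by 1.54 and 1.84 (adjusted p = 2.5e-09 and 4.8e-10), whereas POLG, the DNA polymerase, measured 0.07 and 0.07 (adjusted p = 0.466 and 0.447). TRMT10C stood on 2 rows that moved in opposite directions and is uncertain. Of 7 tested translation factors on the list, 2 rose and 1 fell in DMEM/F12 (28.6% higher) and 4 rose in incubation medium (57.1%), among them SLIRP, a stabiliser of mitochondrial messenger RNA (0.94 and 1.23, adjusted p = 3.5e-05 and 2.53e-06).

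Of 8 tested regulators of mitochondrial biogenesis, 2 were higher and 4 lower in DMEM/F12 (25% and 50%) and 2 higher and 2 lower in incubation medium (25% each), with 3 and 3 in DMEM/F12 under library totals. ESRRA, a nuclear receptor that acts with PGC-1 coactivators, averaged 15.99 ± 1.6 CPM (SD) in fresh cells, 49.7 ± 4.63 CPM in DMEM/F12 and 97.5 ± 11.2 CPM in incubation medium. It rose by 1.64 and 2.61 (adjusted p = 1.66e-08 and 2.38e-10), and the difference between the media was 0.97 (adjusted p = 1.6e-05). PPARGC1A, which encodes PGC-1alpha, averaged 18.0 ± 2.35, 8.35 ± 2.67 and 16.5 ± 3.88 CPM, a fall of 1.11 on the log2 scale in DMEM/F12 (adjusted p = 0.000462) and -0.13 in incubation medium (adjusted p = 0.592). NRF1, the nuclear respiratory factor, fell in both (-0.47 and -0.45, adjusted p = 0.000695 and 0.000956), and YY1 measured 0.04 and 0.00 (adjusted p = 0.571 and 0.975).

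Markers of mitochondrial content rose with the ribosomal genes: 6 of 8 tested rose in DMEM/F12 and all 8 in incubation medium, at sums of 642 to 696 CPM in fresh cells, 1017 to 1099 CPM in DMEM/F12 and 1158 to 1377 CPM in incubation medium. VDAC1, the main channel of the outer membrane, rose by 0.94 and 1.17 (adjusted p = 1.25e-07 and 1.54e-08), and CYCS, cytochrome c, by 1.13 and 1.61 (adjusted p = 0.000247 and 9.24e-06). Between the media 7 of the 8 were higher in incubation medium, but 1 with library totals, against 12.7% and 8.81% of all genes tested. How far the changes of the ribosomal and import genes go with these markers was not tested.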

How the data were processed

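RNA of 12 libraries was captured with oligo-dT and tagmented after reverse transcription, per the labels' protocols. The submitters' processing notes name fastp 0.24.0, STAR 2.7.11, SAMtools 1.22.1 and featureCounts of Subread 2.1.1; the genome build is not given in the sources used here. Per the file headers, the deposited table holds an expected count and a CPM value for each gene in each library. Counts that were not whole, seen in at least 1 library for 60 of the 90 genes, may mark reads shared between features. They were rounded. The 92 spike-in rows were left out. The deposited CPM were not used.

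Differences were tested with edgeR 4.0.16 under R 4.3.3 (filterByExpr, TMM, quasi-likelihood F-test, 1 fit of 12 libraries, Benjamini-Hochberg adjustment over 14070 genes). Printed CPM are TMM-scaled. Standard errors are the absolute log2 fold change over the square root of F. Precision rests on 4 libraries a group. On simulated data of DMEM/F12 against fresh cells (14070 genes), 29.5% of 1.5-fold, 84% of 2-fold and 99% of 4-fold changes were recovered. The simulation changed 200 genes and gave every gene the common biological coefficient of variation, 0.146. In the data far more genes were called, and the median coefficient of the genes described here was 0.0994. The recovered shares therefore do not give the power for these genes. Alternatives were library totals, RLE size factors, other filters, only the 2 groups compared, DESeq2 1.42.0, only genes with whole counts, thinned counts, leaving out each library, and a replicate block. Libraries with the same replicate number deviated together: the correlations of their deviations from the group means were 0.196 to 0.516 over the 12 pairs, against -0.318 to 0.023 between other numbers. The pairing comes from the titles of the libraries.

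Genes named with values were a fixed list of receptors, channels, chaperones and factors, paralog pairs, and in each comparison the 5 largest called rises and falls without overlap and with a mean of at least 5 CPM. The genes, lists and tests were chosen with earlier results of these data known.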

Additional observations from a re-analysis of the deposited data

Results flagged for a closer look

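In 8 of 267 groups of 4 libraries checked (3%), 1 library stood apart from the other 3 by a gap above Dixon's 95% critical value; chance gives about 1 in 20. In fresh cells, MRPL11 read 56.8 CPM in replicate 4 against 58.5 to 58.7 CPM in the others, and MRPS31 read 21.1 CPM in replicate 3 against 25.5 to 25.8 CPM. In DMEM/F12 spheroids, replicate 2 was high for MRPL11 (88.0 CPM against 81.6 to 82.7) and low for MRPL33 (30.9 CPM against 37.8 to 38.0). Replicate 3 of that group was low for MRPL15 (75.9 CPM against 82.1 to 83.1) and high for MRPL43 (48.7 CPM against 40.4 to 41.7), and replicate 4 was low for TIMM17B (75.3 CPM against 80.0 to 80.6). In incubation medium spheroids, replicate 4 was low for TFB2M (9.67 CPM against 15.2 to 15.6).

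For 2 genes the change against fresh cells was called in opposite directions in the media, with a difference between media that passed the edgeR test. The difference was 0.833 for TIMM9 (-0.268 in DMEM/F12 and 0.565 in incubation medium) and 0.696 for TOMM20 (-0.461 and 0.235). Both comparisons share the fresh cell libraries, and the difference itself does not use them. In 6 further genes (MRPL10, MRPS33, TOMM34, TIMM21, TIMM8A and TFAM) the values had opposite signs and the media were called different, but at most 1 of the changes against fresh cells was called. With library totals MRPL10, TIMM21 and TFAM were not called different between the media. Without the filter on low counts TIMM21 (adjusted p = 0.0554) and TFAM (adjusted p = 0.0857) were not called either.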

How the results depend on the processing

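The counts of called genes kept their direction under every setting tried. With the replicate block, 64 rose and 9 fell in DMEM/F12, 77 rose and 2 fell in incubation medium and 44 were higher between media. DESeq2 gave 61 and 6, 76 and 2, and 35. Among the 30 tested genes with whole counts only, 23 rose and 2 fell, 28 rose and 0 fell, and 11 were higher between media; the lower counts come from fewer genes tested. Without the filter on low counts, 1 gene fell in incubation medium. The median in DMEM/F12 moved from 0.52 to 0.597 with library totals and to 0.595 without the filter. Library totals moved the median of all genes tested there from -0.014 to 0.060. Without the filter that median was -0.074, over 23767 genes. With whole counts only, the median of the 30 genes was 0.600, which is over another set of genes. The cause of these shifts was not tested.

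Leaving out each library gave 58 to 63 higher and 5 to 8 lower in DMEM/F12, 76 to 79 and 2 to 2 in incubation medium, and 32 to 42 and 0 to 0 between media, with medians of 0.51 to 0.579, 0.725 to 0.827 and 0.207 to 0.298. Thinned counts were chosen after seeing the data.

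Signs turned only for values that were not called. TFAM in DMEM/F12 became 0.043 with library totals and 0.038 without the filter. TOMM7 in incubation medium became 0.032 without the filter, and TIMM22 there -0.006 with a mean of at least 10 counts. Between media GFM2 became -0.057 with library totals and -0.112 with thinned counts, which also turned TIMM17A (0.019) and MRPL13 (0.008). Leaving out 1 library spread these 6 values over -0.061 to 0.025, -0.048 to 0.024, -0.025 to 0.106, -0.091 to 0.11, -0.091 to 0.055 and -0.047 to 0.021.

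Thinning to the smallest library total left 56 higher and 6 lower in DMEM/F12, 76 and 3 in incubation medium and 34 and 0 between media. A gene not called at this depth may still differ.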
